A study of Mus musculus with 8 samples.

Results

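D2A1-m1 and D2A1-m2 are 2 metastatic sublines of D2A1, a mouse mammary carcinoma line from the BALB/c strain, and the arrays of these sublines were compared with each other here. All arrays whose labels name either subline were taken, which gave 5 of the 8 arrays in the series: 2 of D2A1-m1 and 3 of D2A1-m2. The remaining 3 arrays were of the parental D2A1 line and served to estimate the batch and the spread between replicates. RNA came from untreated cultured cells and was measured on Illumina MouseWG-6 v2.0 bead arrays, which read 1 colour, and the study's methods call the cultures independent biological replicates. In batch 1, as the labels name it, were the first array of each subline and the first and second of D2A1. The second D2A1-m1 array, D2A1-m2 replicates 2 and 3 and D2A1 replicate 3 formed batch 2. Each subline was raised on its own by passage through mice and regrowth from the lung, so each stands for a single selected line that the labels call a subclone. A difference between them is a difference between these lines, and it was not measured in other lines of like behaviour. Untreated D2A1, the cells from which both were selected, is given beside the sublines for part of the genes.

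Metastasis from a mammary tumour runs through local invasion, entry into vessels, survival in the circulation and growth in a distant organ. Cells that do well at these steps often differ in genes for the actin skeleton and its adhesions, for the extracellular matrix and the enzymes that cut it, and for signals exchanged with stromal and immune cells. Interferon-stimulated genes form a further group, which tumour cells switch on in response to interferons or to their own misplaced nucleic acids. The study raised the sublines as models of metastasis and profiled them beside D2A1, and the 5 arrays allow the sublines to be set against each other at the level of RNA.

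The sublines differed in 385 of 9017 genes tested, which is 4.27% of them. Of these genes, 180 (2%) were higher in D2A1-m1 and 205 (2.27%) were higher in D2A1-m2. A gene was called when its Benjamini-Hochberg adjusted p in limma, over all genes tested, was under 0.05 and its difference was at least 1.5-fold. Values are normalized log2 intensities, differences are D2A1-m1 minus D2A1-m2, and a difference of 1 is a doubling of intensity. Most differences were small, with a median size of 0.80 among the called genes and 0.17 among all genes. With genes that the dimmer subline did not show above background counted at their bound, explained below, 97 called genes differed at least 2-fold (50 towards D2A1-m1, 47 towards D2A1-m2), while 7 differed at least 4-fold (3 and 4). The values of the D2A1-m1 and D2A1-m2 arrays did not overlap in 369 of the 385 genes, against 29.0% of all genes tested. Shares of called genes within gene lists are given below as descriptions. The lists were drawn up with earlier results of these data known, so a share above 4.27% is no independent support for a list.

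The count rests on few arrays and on the batch term. With D2A1-m1 replicate 2 left out 32 genes were called, and with D2A1-m1 replicate 1 left out 50, since only 1 array then stood for that subline and was assumed to vary like the others. Without D2A1-m2 replicate 1, 2 or 3 the counts were 151, 88 and 85. With no batch term 70 genes were called. Of the 385 genes, 226 were called in no fit that left out a subline array. A core of 23 genes was called whichever of the 8 arrays was left out, and these were also called with no batch term. On the authors' processed values 14 of the 23 were called, and Map4, Xlr4a, Pak3, Cyp2c55, Shroom2, Phlda3, Laptm5, Cfap299 and Macc1 were not. Of the 23, 7 were higher in D2A1-m1 (Scara5, Mgp, Chst1, Gjc1, Notum, Gchfr and Map4). The other 16 were higher in D2A1-m2 (Ptx3, Tubb2b, Xlr4a, Crip2, Pak3, Cyp2c55, Prl2c3, Shroom2, Prl2c2, Phlda3, Rab32, Tpd52, Laptm5, Cfap299, Macc1 and Zfp37). Any other called gene named below lost its call in at least 1 fit that left out an array.

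The batches shared no array, so each gave its own difference. All 385 called genes had the same sign in both, as the fit over both batches favours, and 70.2% of all genes tested did. Among the 139 genes that differed at least 2-fold in batch 1, 125 had the same sign in batch 2 and 107 of them reached 1.5-fold there. Among the 150 genes that differed at least 2-fold in batch 2, 144 had the same sign in batch 1 and 118 reached 1.5-fold. Of 11 genes that differed at least 4-fold in batch 1, 11 reached 1.5-fold in the same direction in batch 2, and of 14 such genes in batch 2, 13 did so in batch 1. These counts use measured values, also where a subline was not above background. Across genes, which are not independent replicates, Pearson's r of the 2 differences was 0.64. Over all genes tested, arrays of different sublines from 1 batch (r = 0.984 for D2A1-m1 replicate 1 with D2A1-m2 replicate 1) were as alike as arrays of 1 subline from different batches (r = 0.979 for the D2A1-m1 arrays).

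**Figure D1:**
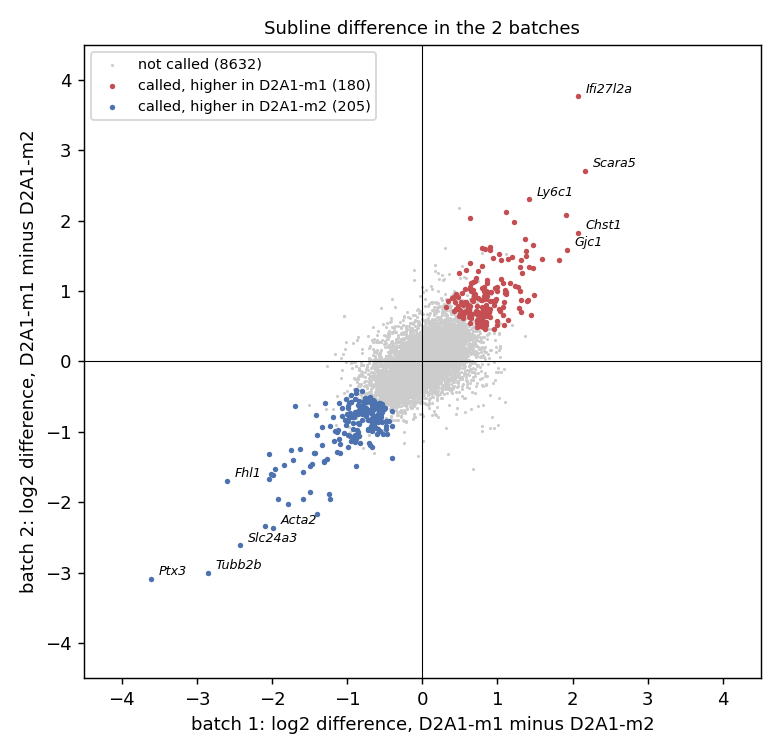
Each point is 1 of the 9017 genes tested, with the log2 difference D2A1-m1 minus D2A1-m2 in batch 1 on the x axis and in batch 2 on the y axis; red and blue mark the 180 and 205 called genes. The called genes lie in the quadrants of equal sign, and Acta2 (−1.98 and −2.37) and Scara5 (2.17 and 2.71) lie far from the origin in both batches; genes not above background in a subline, such as Ptx3, are drawn at their measured values.

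On the subline arrays 13618 to 14942 of 45281 probes were detected above the negative control beads (detection p at most 0.01). Of 13 luminal epithelial markers, Krt8, Krt18, Cldn7, Gata3 and Foxa1 were detected in the sublines, whereas Epcam, Cdh1, Krt19, Cldn3, Cldn4, Esr1, Pgr and Elf5 were not detected on any array, so the cells lacked most defining transcripts of mammary epithelium at this sensitivity. The leukocyte genes Ptprc, Cd52, Cd53, Tyrobp, Csf1r and Lyz2, the endothelial genes Pecam1, Cdh5 and Kdr, the fibroblast genes Col1a2, Col3a1 and Dcn and the lung epithelial genes Sftpb, Sftpc and Scgb1a1 were not detected on any array either. Other members were detected in the sublines: Laptm5, Coro1a, Lyz1 and Cd14 of the leukocyte list and Flt1, Eng, Ramp2 and Egfl7 of the endothelial list. So were Col1a1, Pdgfra, Inmt and Macf1 of the fibroblast list and Hopx and Abca3 of the lung epithelial list. Of single markers in these lists, Acta2, Mcam, Laptm5 and Flt1 were higher in D2A1-m2 and Pdgfra was higher in D2A1-m1, and their lists are given beside them below. The summed level of each list includes the called marker itself.

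The genes with the largest difference in favour of D2A1-m1 came from several groups: interferon-induced genes, matrix and surface proteins and a Wnt antagonist. Ifi27l2a, an interferon-induced mitochondrial protein, stood at 10.60 and 11.74 on the D2A1-m1 arrays and at 8.53, 7.93 and 8.01 on the D2A1-m2 arrays. D2A1 spanned 7.62 to 9.48. The difference was 3.11 (SE 0.44, adjusted p = 0.00749), with 2.08 in batch 1 and 3.77 in batch 2, so its size varied between batches while its direction did not. Scara5, a scavenger receptor that takes up ferritin, was at 7.31 and 7.71 in D2A1-m1 against 5.14, 5.23 and 4.77 in D2A1-m2, with 4.30 to 4.34 in D2A1. Only D2A1-m1 and 1 D2A1-m2 array detected this probe, the difference was 2.47 (SE 0.17, adjusted p = 0.000311), and the gene's other kept probe gave −0.30. Mgp, an inhibitor of calcification in the matrix, was at 12.80 and 12.84 in D2A1-m1 against 10.89, 10.63 and 10.91 in D2A1-m2, a difference of 2.04 (SE 0.19, adjusted p = 0.00126). Both sublines stood above D2A1 here, at 7.38 to 8.14, so the sublines shared a direction and differed in its extent.

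Chst1, a sulfotransferase of keratan sulfate, showed the same order with tight replicates. Its level was 9.27 and 8.91 in D2A1-m1, 7.20, 7.19 and 6.98 in D2A1-m2, with 4.29 to 4.41 in D2A1, and the difference between the sublines was 1.94 (SE 0.13, adjusted p = 0.000305). Ly6c1, a glycolipid-anchored surface protein of the Ly6 family, was at 8.24 and 8.60 against 6.81, 6.22 and 6.36 (1.95, SE 0.20, adjusted p = 0.00178). Gjc1, which encodes the gap junction protein connexin 45, was at 9.14 and 8.18 against 7.21, 6.75 and 6.44 (1.77, SE 0.18, adjusted p = 0.00178). In each of these genes every D2A1-m1 array lay above every D2A1-m2 array. D2A1 lay below both sublines for Ly6c1, at 5.87 to 6.23, and between them for Gjc1, at 7.66 to 7.94.

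Gchfr, which regulates the first enzyme of tetrahydrobiopterin synthesis, differed through a low level in D2A1-m2. It was at 8.60 and 8.62 in D2A1-m1, 7.004, 7.18 and 7.14 in D2A1-m2, with 8.04 to 8.42 in D2A1 (difference 1.53, SE 0.13, adjusted p = 0.000629). Map4, a microtubule-associated protein, was detected in D2A1-m1 at 6.06 and 6.07 and was not above background on any D2A1-m2 or D2A1 array. It was at least 1.85-fold higher in D2A1-m1 (adjusted p = 0.000587), where such a bound sets the mean of the brighter subline against the lowest signal detected on the arrays of the dimmer one. Msln, the surface glycoprotein mesothelin, was at 7.02 and 6.78 against 5.20, 5.32 and 5.35 (1.57, adjusted p = 0.0107). Rgcc, a regulator of the cell cycle, was at 8.19 and 8.70 against 6.82, 7.27 and 7.13 (1.49, adjusted p = 0.0248), and D2A1 spread from 4.72 to 6.36.

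**Figure D2:**
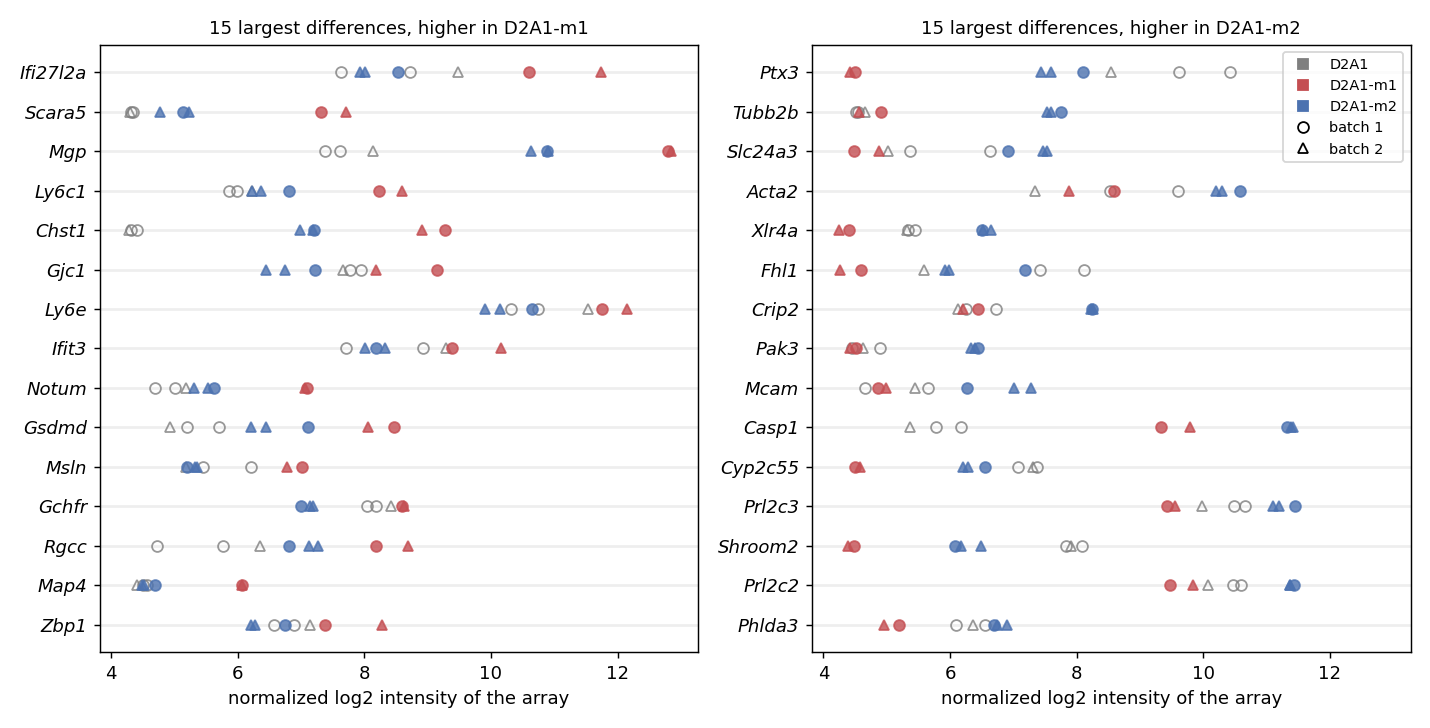
Normalized log2 intensity (x axis) of the 15 called genes with the largest measured difference in each direction, with 1 symbol per array, coloured by line (open symbols for D2A1) and shaped by batch. For every gene the red D2A1-m1 symbols stand apart from the blue D2A1-m2 symbols, as for Mgp at 12.80 and 12.84 against 10.63 to 10.91, while the D2A1 symbols lie on either side or between them.

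Ptx3, a secreted pattern-recognition protein of the acute-phase response, was higher in D2A1-m2. Its probe was at 8.11, 7.59 and 7.43 in D2A1-m2 and not above background in D2A1-m1, where it read 4.50 and 4.42. D2A1 was higher than both sublines, at 8.54 to 10.42. Ptx3 was at least 5.54-fold higher in D2A1-m2 than in D2A1-m1 (adjusted p = 0.00106). Tubb2b, a beta-tubulin, was at 7.76, 7.59 and 7.53 in D2A1-m2 and not above background in D2A1-m1, where the bound was 5.23-fold (adjusted p = 3.82e-05). Its 3 other kept probes gave differences of only −0.68 to −0.15, so this size belongs to the probe used. Slc24a3, a potassium-dependent sodium/calcium exchanger, was at 6.91, 7.53 and 7.47 in D2A1-m2 and at least 4.17-fold higher than in D2A1-m1 (adjusted p = 0.0118), where it was not above background.

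Genes of several further functions were near background in D2A1-m1 and clearly measured in D2A1-m2. Xlr4a, of the X-linked lymphocyte-regulated family, was at 6.50, 6.65 and 6.52 in D2A1-m2 and not above background in D2A1-m1 (at least 2.49-fold, adjusted p = 7.94e-05), with the caution that this family holds near-identical copies. Pak3, a p21-activated kinase that acts on the actin skeleton, was at 6.45, 6.39 and 6.34 in D2A1-m2 (at least 2.22-fold, adjusted p = 0.000476), and Cyp2c55, a cytochrome P450, was at 6.55, 6.28 and 6.20 (at least 2.15-fold, adjusted p = 0.000629). The 2 genes differed in the parental line. Pak3 read 4.45 to 4.89 in D2A1, not above background, whereas Cyp2c55 was at 7.07 to 7.37, above both sublines. Crip2, a LIM domain protein, was measured in both sublines, at 8.24, 8.25 and 8.22 in D2A1-m2 against 6.45 and 6.20 in D2A1-m1 (−1.94, SE 0.16, adjusted p = 0.000629). Phlda3, a p53 target that restrains AKT, was at 6.70, 6.90 and 6.74 in D2A1-m2 (at least 2.91-fold, adjusted p = 0.0013), and Zfp37, a zinc finger protein, was at 7.70, 7.62 and 7.60 against 6.40 and 6.18 (−1.38, SE 0.12, adjusted p = 0.000629).

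The proliferins Prl2c2 and Prl2c3, secreted prolactin-family proteins with angiogenic activity, were also higher in D2A1-m2. Prl2c2 was at 11.43, 11.37 and 11.37 in D2A1-m2 and 9.47 and 9.84 in D2A1-m1 (−1.75, SE 0.18, adjusted p = 0.00164). Prl2c3 was at 11.44, 11.19 and 11.11 against 9.43 and 9.55 (−1.81, SE 0.17, adjusted p = 0.00106). The 2 genes are close copies of each other, so their probes may read the same transcripts and they are best counted as 1 signal. D2A1 lay between the sublines for both, at 9.97 to 10.65. They were the only called members among 4 tested genes of the prolactin and placental list (50%, against 4.27% of all genes tested). The 50% counts the 2 close copies separately, so it overstates the share if they are 1 signal. Prl2c4, a further proliferin outside the list, was also called higher in D2A1-m2 (−1.67). Whether its probe reads the same transcripts was not tested.

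Interferon-stimulated genes tended to be higher in D2A1-m1. Of 43 tested members, 5 were higher in D2A1-m1 (Ifit3, Zbp1, Oas1a, Dhx58 and Ifit2), 1 was higher in D2A1-m2 (Ifi27) and 37 did not pass, where 2% and 2.27% of all genes tested were called in these directions. The difference was above 0 in 40 of the 43, with a median of 0.62, against 52.0% of all genes tested and a median of 0.01. Ifit3, which encodes an antiviral protein that binds foreign RNA complexes, was at 9.39 and 10.15 in D2A1-m1 against 8.18, 8.01 and 8.33 in D2A1-m2 (1.69, SE 0.34, adjusted p = 0.0284). Zbp1, a sensor of Z-form nucleic acids, was at 7.39 and 8.28 against 6.75, 6.21 and 6.27 (1.46, SE 0.27, adjusted p = 0.0216), but its other kept probe gave 0.17. Oas1a, a 2′-5′ oligoadenylate synthetase, was at 6.85 and 7.53 against 5.82, 5.97 and 6.04 (1.35, SE 0.30, adjusted p = 0.036), and Dhx58, an RNA helicase of the RIG-I family, was at 7.46 and 8.24 against 6.67, 6.44 and 6.81 (1.32, SE 0.29, adjusted p = 0.0348). In all 4 the sublines did not overlap, but D2A1-m1 replicate 2, in batch 2, was the higher of the pair in each.

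The parental line spread over the same range in this group. The list's mean log2 intensity was 8.44 and 8.87 on the D2A1-m1 arrays and 8.19, 8.01 and 8.15 on the D2A1-m2 arrays, but 8.41, 7.84 and 8.92 on the D2A1 arrays, which thus covered both sublines. The list's median difference was 0.26 within batch 1 and 0.79 within batch 2. It stayed between 0.48 and 0.91 when any 1 array was left out, but none of the members was called without D2A1-m1 replicate 2, without D2A1-m2 replicate 2 or without D2A1-m2 replicate 3. Isg15, a ubiquitin-like modifier induced by interferon, had a difference of 0.08 (adjusted p = 0.908) and Irf7, the factor that drives type I interferon, 0.78 (adjusted p = 0.299). Ifi27 went the other way, at 11.73 and 11.48 in D2A1-m1 against 12.30, 12.46 and 12.49 in D2A1-m2 (−0.83, SE 0.14, adjusted p = 0.0171). It is a near neighbour and relative of Ifi27l2a, the gene with the largest difference towards D2A1-m1, and cross-reaction between their probes was not tested.

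Interferon acts on many of these genes through a short promoter element, the interferon-stimulated response element. A match was scored as GAAANNGAAA on either strand, overlaps allowed, in the 250 bases before the start of each gene in the RefSeq promoter table (build GRCm38.p6). The element and its letters were chosen after the differences had been seen. Matches were present in 13 of the 33 list members that have a window (39.4%) and in 3.46% of all 27025 genes with one. The list holds genes chosen as interferon-stimulated, so this contrast describes the list and not the difference between the sublines. The 13 genes had differences of 0.08 to 1.69 with a median of 0.67, near the median of 0.62 over all 43 tested members. Of the 3 called members that have a window, 2 held a match, Ifit3 and Oas1a. These are shown with Gbp2, a guanylate-binding protein, and Isg15, which held matches but were not called, each from its gene's strand with the matches in capitals. The Ifit3 stretch is chr19:34583358-34583431 (+ strand), Oas1a chr5:120907526-120907560 (− strand), Gbp2 chr3:142620589-142620628 (+ strand) and Isg15 chr4:156200860-156200911 (− strand), and TTTCNNTTTC is the same element read on the other strand.
Ifit3: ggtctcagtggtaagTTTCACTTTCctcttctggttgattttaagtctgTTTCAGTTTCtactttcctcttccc
Oas1a: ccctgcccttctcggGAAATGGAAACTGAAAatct
Gbp2: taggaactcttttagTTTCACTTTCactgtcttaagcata
Isg15: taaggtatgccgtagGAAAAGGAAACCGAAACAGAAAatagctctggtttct

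The element thus stood before Ifit3, which differed by 1.69, and before Isg15, which differed by 0.08. Gbp2 had a difference of 0.99 (adjusted p = 0.188), at 10.003 and 10.76 in D2A1-m1 against 9.44, 9.57 and 9.57 in D2A1-m2, and did not pass. A match describes the sequence and does not show that the element was in use in these cells.

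Genes of antigen presentation, many of which interferon also induces, leaned the same way but hardly passed the test. Of 14 tested, 13 had a difference above 0 and the median was 0.37 (0.09 in batch 1 and 0.53 in batch 2). Only Psmb9 was called (7.14%, against 4.27% of all genes tested). Psmb9, a subunit of the immunoproteasome, was at 5.67 and 5.24 in D2A1-m1 and not above background in D2A1-m2 (at least 1.21-fold, adjusted p = 0.0442). Ly6e, an interferon-inducible surface protein, was outside both lists and higher in D2A1-m1, at 11.75 and 12.15 against 10.65, 9.91 and 10.15 (1.76, SE 0.32, adjusted p = 0.0213). H2-DMa, a gene of MHC class II antigen presentation, was outside both lists too and was called higher in D2A1-m2 (−0.76).

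**Figure D3:**
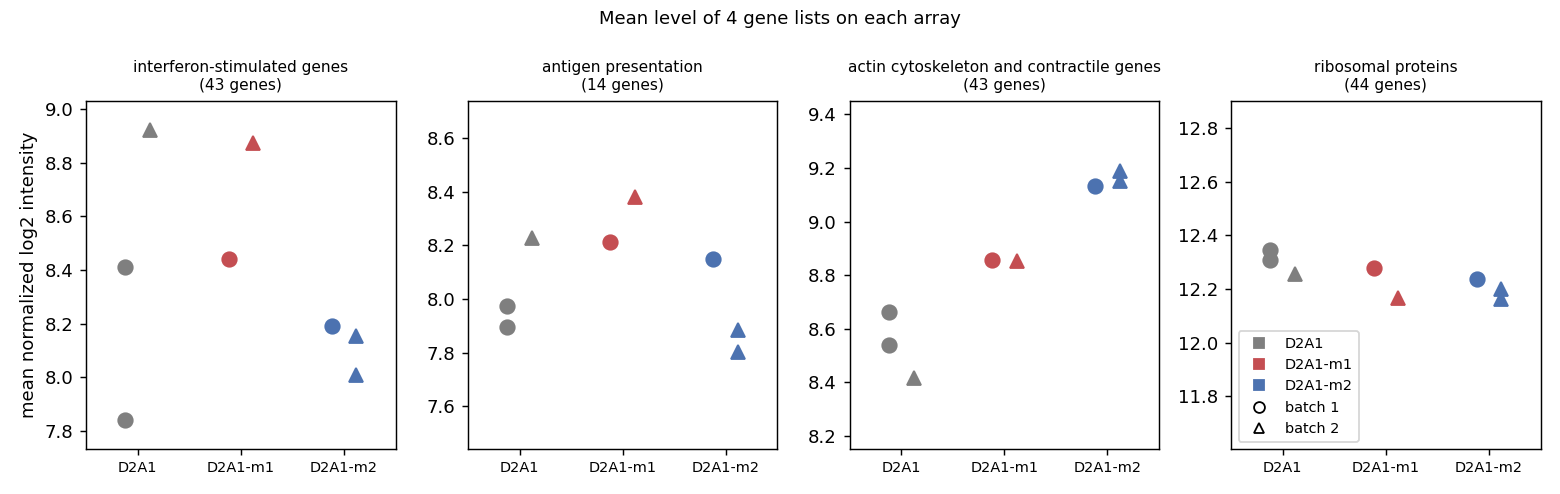
Mean normalized log2 intensity (y axis, the same span of 1.3 in each panel) over the tested members of 4 gene lists, 1 symbol per array, coloured by line and shaped by batch. For the interferon list the D2A1 arrays, 7.84 to 8.92, cover the range of both sublines; for the actin list the 3 D2A1-m2 arrays, 9.13 to 9.19, lie above the D2A1-m1 arrays at 8.86 and 8.85.

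The genes of pyroptosis, the lytic cell death that follows inflammasome activation, divided between the sublines. Casp1, the protease that cleaves pro-interleukin-1β and gasdermin D, was higher in D2A1-m2, at 11.32, 11.39 and 11.42 against 9.33 and 9.80 in D2A1-m1 (−1.82, SE 0.23, adjusted p = 0.00421). Gsdmd, which encodes gasdermin D, the protein that forms the membrane pore, was higher in D2A1-m1, at 8.47 and 8.06 against 7.11, 6.45 and 6.21 (1.58, SE 0.18, adjusted p = 0.00253). Its other 2 kept probes gave 1.22 and 1.39. Both genes lay higher in either subline than in D2A1, where Casp1 was at 5.36 to 6.17 and Gsdmd at 4.94 to 5.71. The enzyme was thus highest in one subline and its substrate in the other, and the other 5 tested members of the list were not called. With 7 members tested, the calls made 28.6%, against 4.27% of all genes tested.

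Genes of the actin skeleton list were higher in D2A1-m2 wherever they were called. Of 43 tested members 9 were called, all higher in D2A1-m2, as were 2.27% of all genes tested, and the median difference was −0.21 (−0.14 in batch 1 and −0.20 in batch 2). Acta2, the smooth muscle actin of contractile cells, was at 10.58, 10.30 and 10.20 in D2A1-m2 and 8.60 and 7.88 in D2A1-m1 (−2.28, SE 0.36, adjusted p = 0.0117), and its 3 other kept probes gave −2.002 to −1.70. D2A1 spread widely, from 7.34 to 9.60. Shroom2, which recruits contractile actin at the cell cortex, was at 6.08, 6.49 and 6.17 in D2A1-m2 and not above background in D2A1-m1 (at least 2.01-fold, adjusted p = 0.000697). It was higher still in D2A1, at 7.83 to 8.08.

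The smaller differences concerned adaptors of focal adhesions and stress fibres. Zyx, which encodes zyxin, was at 13.55, 13.23 and 13.18 in D2A1-m2 against 12.69 and 12.59 in D2A1-m1 (−0.75, adjusted p = 0.0379). Actn1, an actin crosslinker, was at 12.43, 12.33 and 12.50 against 11.79 and 11.75 (−0.66, adjusted p = 0.0213). The LIM proteins Csrp1 (−0.76, adjusted p = 0.0212) and Csrp2 (−0.77, adjusted p = 0.0182), the filamin Flnc (−0.83, adjusted p = 0.0244), the small GTPase Rhob (−0.94, adjusted p = 0.00572) and the Z-disc adaptor Pdlim5 (−0.64, adjusted p = 0.0381) completed the 9. In all 9 the sublines did not overlap. The list's mean was 8.86 and 8.85 in D2A1-m1, 9.13, 9.15 and 9.19 in D2A1-m2, with 8.42 to 8.66 in D2A1. By this mean both sublines stood above the parental line, but for Shroom2, Rhob and Flnc the D2A1 mean lay above both subline means. Leaving out either D2A1-m1 array reduced the called members to 1, and leaving out D2A1-m2 replicate 1, 2 or 3 to 3, 2 and 2, while all of them remained higher in D2A1-m2.

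The LIM protein Fhl1, outside the list, was also higher in D2A1-m2, at 7.19, 5.92 and 5.99 against no signal above background in D2A1-m1 (at least 2.18-fold, adjusted p = 0.0133). Other called genes of the actin skeleton outside the list went both ways. Aif1l (1.37), Pdlim2 (1.24) and Tln2 (0.92) were higher in D2A1-m1, and Smtn (−0.96), Cap1 (−0.72) and Actn2 (−0.72) were higher in D2A1-m2. Acta2 is a marker of myoepithelial cells too. Of 10 such markers, Acta2, Mylk and Lgals7 were detected in the sublines, and Krt5, Krt14, Krt17, Myh11, Cnn1 and Oxtr were not detected on any array. The summed linear level of the list, with Acta2 included, was 1546 to 1608 in D2A1-m1 and 3520 to 3870 in D2A1-m2. No sum without Acta2 was made, so this level does not describe the other markers. In bulk RNA, more cells of a kind and more RNA per cell cannot be told apart.

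Matrix and matricellular genes were divided between the sublines, with fibronectin and 2 secreted regulators of adhesion higher in D2A1-m2. Of 19 tested structural matrix genes 2 were higher in D2A1-m1 (Mgp and Col6a1) and 3 in D2A1-m2 (Fn1, Lamc1 and Hspg2). That was 26.3% of them, where 4.27% of all genes tested were called. Fn1, which encodes fibronectin, was at 7.87, 7.69 and 7.58 in D2A1-m2, 6.43 and 6.34 in D2A1-m1 and 6.89 to 8.19 in D2A1 (−1.40, SE 0.24, adjusted p = 0.0161), and its other kept probe gave −0.53. Ccn2, the connective tissue growth factor, was at 9.84, 9.30 and 9.19 in D2A1-m2 against 8.37 and 7.80 in D2A1-m1 (−1.53, SE 0.26, adjusted p = 0.0165). D2A1 overlapped both sublines, at 8.13 to 10.01. Col6a1, a collagen VI chain, was at 5.67 and 6.17 in D2A1-m1 against 4.76, 5.11 and 5.24 in D2A1-m2, where 1 array detected it (0.93, adjusted p = 0.0114).

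The thrombospondins went in opposite directions. Thbs1 was higher in D2A1-m2, at 7.75, 8.02 and 8.47 against 6.87 and 7.14 (−1.05, SE 0.24, adjusted p = 0.0408). Thbs2 was higher in D2A1-m1, at 9.79 and 10.003 against 9.04, 8.70 and 8.73 (1.06, SE 0.14, adjusted p = 0.00635). Both sublines were far above D2A1, which read 4.32 to 4.34 and was not above background. Ogn, a small proteoglycan, was called higher in D2A1-m2 (−0.76, adjusted p = 0.0348), but its arrays overlapped and its 2 other probes gave −0.14 and 0.01. Among 15 tested matricellular genes 2 were thus higher in D2A1-m1 and 3 in D2A1-m2, or 33.3% against 4.27% of all genes tested.

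Of 21 tested matrix proteases and inhibitors 3 were called (14.3%, against 4.27% of all genes tested). Mmp10, stromelysin 2, was at 8.70, 8.01 and 8.12 in D2A1-m2, 7.43 and 6.69 in D2A1-m1 and 8.63 to 8.83 in D2A1 (−1.30, SE 0.16, adjusted p = 0.00371). Mmp14, a membrane-bound collagenase, was lower in D2A1-m1 by less and with overlap, at 10.82 and 9.95 against 11.26, 10.89 and 10.71 (−0.68, adjusted p = 0.0486, other kept probe −0.38). Mmp3, stromelysin 1, was called higher in D2A1-m1 (adjusted p = 0.0171), but only 1 subline array detected it, so no fold is given. Mcam, the adhesion molecule CD146, was at 6.26, 7.02 and 7.28 in D2A1-m2 and not above background in D2A1-m1 (at least 3.06-fold, adjusted p = 0.0102), and its 2 other probes gave −0.95 and −0.81. It is a pericyte marker as well. Pdgfrb and Cspg4 were the other detected markers of that list of 10, and Rgs5, Kcnj8, Abcc9 and Notch3 were not detected on any array. The list's summed level, with Mcam included, was 98.4 to 135 in D2A1-m1 and 163 to 272 in D2A1-m2. No sum without Mcam was made, so this level does not describe the other markers.

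**Figure D4:**
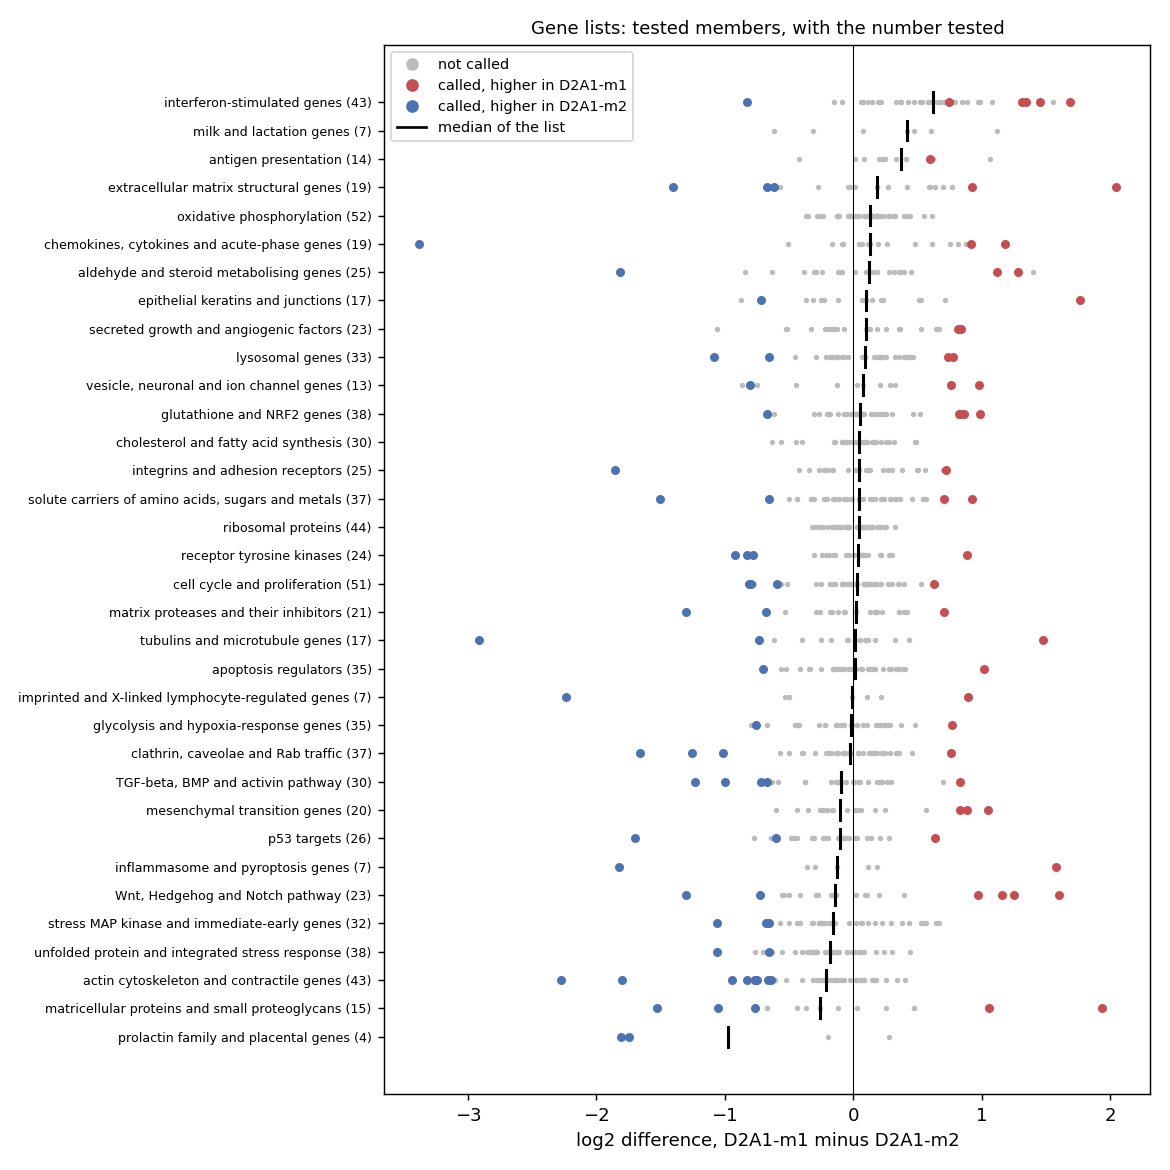
Log2 difference, D2A1-m1 minus D2A1-m2 (x axis), of every tested member of 34 gene lists (y axis, with the number tested), ordered by the list median (black bar). Called genes are red where higher in D2A1-m1 and blue where higher in D2A1-m2; the interferon list has the highest median, 0.62, and the actin list has 9 called genes that are all blue.

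Components of the Wnt pathway and of TGF-β signalling were among the called genes in both directions. Notum, a secreted enzyme that inactivates Wnt proteins, was at 7.09 and 7.07 in D2A1-m1 against 5.62, 5.53 and 5.30 in D2A1-m2 (1.60, SE 0.17, adjusted p = 0.00185), and its 2 other probes gave 0.44 and 0.67. Nkd2, which binds Dishevelled and restrains Wnt signalling, was at 6.97 and 6.79 against 5.65, 5.55 and 5.53 (1.25, SE 0.16, adjusted p = 0.00417). The ligands diverged. Wnt7b was higher in D2A1-m1, at 7.50 and 7.22 against 6.20, 6.30 and 6.13 (1.16, SE 0.16, adjusted p = 0.00646), and Wnt10a was higher in D2A1-m2, at 7.999, 7.64 and 7.37 against 6.69 and 6.09 (−1.30, SE 0.27, adjusted p = 0.0292). With Nrarp, a Notch target (0.97, adjusted p = 0.0306), and Tcf7l1, a repressor at Wnt targets (−0.72, adjusted p = 0.0269), the list had 4 genes higher in D2A1-m1 and 2 in D2A1-m2 among 23 tested. Its share of calls was 26.1%, against 4.27% of all genes tested.

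Of 30 tested genes of the TGF-β, BMP and activin pathways 1 was higher in D2A1-m1 and 4 in D2A1-m2. These made 16.7% of the list, against 4.27% of all genes tested. Ltbp1, which holds latent TGF-β in the matrix, was at 6.91, 6.66 and 6.40 in D2A1-m2 against 5.57 and 5.35 in D2A1-m1 (−1.23, SE 0.22, adjusted p = 0.0185). The ligand Tgfb3 (−0.67, adjusted p = 0.0419) and the target Pmepa1 (−0.72, adjusted p = 0.0283, other kept probe −0.29) had the same direction. The inhibitors of differentiation parted: Id3 was higher in D2A1-m2 by 2-fold (−0.997, adjusted p = 0.0315), while Id4 was higher in D2A1-m1, at 9.99 and 9.45 against 9.09, 8.75 and 8.64 (0.83, adjusted p = 0.0124). Id4 was not above background in D2A1, which read 4.31 to 4.53.

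Among 24 tested receptor tyrosine kinases Pdgfra was higher in D2A1-m1 by the probe used (0.89, adjusted p = 0.0189), while its other kept probe gave −0.17, and Epha2 (−0.82, adjusted p = 0.0219), Epha1 (at least 1.04-fold, adjusted p = 0.0349) and Flt1 (at least 1.22-fold, adjusted p = 0.0107) were higher in D2A1-m2. Called members made 16.7% of this list, against 4.27% of all genes tested. Pdgfra is also a fibroblast marker, and 4 of 17 such markers were detected in the sublines, with a summed level of 214 to 227 in D2A1-m1 and 157 to 188 in D2A1-m2. Flt1 is an endothelial marker, and 4 of 15 of these were detected, at a summed level of 248 to 276 in D2A1-m1 and 251 to 280 in D2A1-m2. Of 20 tested genes of mesenchymal transition, Nt5e, the ecto-nucleotidase CD73 (1.05, adjusted p = 0.00886), Pdgfra and S100a4, a calcium-binding protein linked with metastasis (0.84, adjusted p = 0.0132), were higher in D2A1-m1. S100a4 was at 10.64 and 10.36 in D2A1-m1, 9.56, 9.77 and 9.63 in D2A1-m2, with 8.71 to 8.83 in D2A1. None of the list was called higher in D2A1-m2, and Vim, the mesenchymal filament vimentin, had a difference of −0.43 (adjusted p = 0.0965). The 3 calls were 15% of the list, against 4.27% of all genes tested. The list's median was −0.10, with 11 of the 20 members below 0. Fn1 and Acta2, higher in D2A1-m2 as given above, were not in this list.

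Among secreted signals, Cx3cl1, a membrane-tethered chemokine, was at 8.75 and 7.97 in D2A1-m1 against 7.27, 7.35 and 6.70 in D2A1-m2 (1.18, SE 0.21, adjusted p = 0.0182), and Il34, a ligand of the CSF1 receptor, was also higher in D2A1-m1 (0.92, adjusted p = 0.0264). With Ptx3 these were the called genes among 19 tested chemokines, cytokines and acute-phase genes (15.8%, against 4.27% of all genes tested). Of 23 growth and angiogenic factors, Angptl4 (0.84, adjusted p = 0.0454) and Pros1 (0.82, adjusted p = 0.0144) were higher in D2A1-m1 and none in D2A1-m2. That was 8.70% of the list. The other kept probe of Angptl4 gave −0.36.

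Detoxifying enzymes were called in both directions. Of 38 tested glutathione and NRF2 genes 4 were higher in D2A1-m1, namely the glutathione transferases Mgst2 (0.99, adjusted p = 0.0321), Gstm2 (0.86, adjusted p = 0.0224), Gstm1 (0.84, adjusted p = 0.0149, other kept probe 0.41) and Mgst1 (0.82, adjusted p = 0.0231). Gstp2 was higher in D2A1-m2 (at least 1.33-fold, adjusted p = 0.0343). The 5 calls were 13.2% of the list, against 4.27% of all genes tested. The list's median was 0.05, so the called genes did not stand for the list, and Gstm1 and Gstm2 are similar enough in sequence that their probes may not be fully separate. Of 25 tested aldehyde and steroid metabolising genes 3 were called (12%), with Cyp2c55 higher in D2A1-m2, as given above. The aldehyde dehydrogenases Aldh3a1, at 9.54 and 9.84 in D2A1-m1 against 8.64, 8.17 and 8.35 in D2A1-m2 (1.28, SE 0.26, adjusted p = 0.0272), and Aldh3b1 (1.12, adjusted p = 0.0256) were higher in D2A1-m1. Slc40a1, the iron exporter ferroportin, was higher in D2A1-m2, at 7.03, 7.09 and 6.67 against 5.31 and 5.47 (−1.51, SE 0.26, adjusted p = 0.0166), opposite to the ferritin receptor Scara5. For Slc40a1 the D2A1 arrays lay above both sublines, at 7.45 to 8.40.

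Genes of membrane traffic were higher in D2A1-m2 in 3 of 4 calls among 37 tested. The calls made 10.8% of the list, against 4.27% of all genes tested. Rab32, a GTPase of lysosome-related organelles, was at 9.17, 9.49 and 9.41 in D2A1-m2 and 7.13 and 8.13 in D2A1-m1 (−1.66, SE 0.20, adjusted p = 0.00371). Cavin2, a coat protein of caveolae, was at 9.74, 10.36 and 10.22 against 8.61 and 9.01 (−1.25, SE 0.17, adjusted p = 0.00613). The phosphatase Synj2 had the same direction (at least 1.52-fold, adjusted p = 0.0109, other kept probe −0.04) and Rab7b the opposite (0.76, adjusted p = 0.0114). Tpd52, a vesicle-associated protein raised in many carcinomas, was at 11.07, 11.18 and 10.99 in D2A1-m2, 9.83 and 9.21 in D2A1-m1 and 11.46 to 11.57 in D2A1 (−1.59, SE 0.17, adjusted p = 0.00178), but its other kept probe gave −0.17. Macc1, a gene associated with metastasis of colon cancer, was at 6.84, 6.77 and 6.64 against 5.21 and 5.46 (−1.43, SE 0.15, adjusted p = 0.00206). Cfap299, a ciliary protein, was above background on D2A1-m2 arrays alone (at least 1.48-fold, adjusted p = 0.00178). Tpd52, Macc1 and Cfap299 are named because they were called whichever array was left out. Laptm5, a lysosomal membrane protein of blood cells, was not above background in D2A1-m1 or D2A1 and stood at 5.96, 6.10 and 5.59 in D2A1-m2 (at least 1.56-fold, adjusted p = 0.00164). Of 15 measured leukocyte markers it was 1 of 4 detected in the sublines, with a summed level of 493 to 802 in D2A1-m1 and 388 to 529 in D2A1-m2.

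In several further lists calls were few, as they were among all genes tested (4.27%), so a count of 0 in a list of this size is near that share and is given as a description. None of 52 tested genes of oxidative phosphorylation, 44 ribosomal protein genes, 30 genes of cholesterol and fatty acid synthesis or 7 milk genes was called, with median differences of 0.13, 0.04, 0.05 and 0.42. Of 51 cell cycle genes Ccnd1, which encodes cyclin D1, was higher in D2A1-m1 (0.63, adjusted p = 0.0298), and Ccnd2, which encodes cyclin D2 (−0.81, adjusted p = 0.0383, other kept probes −0.82 and −0.28), the anaphase activator Cdc20 (−0.80, adjusted p = 0.0271) and the kinesin Kif23 (−0.59, adjusted p = 0.0315, but −0.19 to 0.21 by its 3 other kept probes) were higher in D2A1-m2, around a list median of 0.03. Of 38 stress-response genes 29 had a difference below 0 (median −0.18), but only Atf3, a stress-induced transcription factor (at least 1.52-fold, adjusted p = 0.0315), and Slc7a3, an arginine transporter (−0.65, adjusted p = 0.0315), were called, both higher in D2A1-m2. Klf6 and Dusp14, of the immediate-early list, were also higher in D2A1-m2, by 0.68 (adjusted p = 0.0321) and 0.65 (adjusted p = 0.036) on the log2 scale. The arrays overlapped for Klf6, at 6.65 and 4.91 in D2A1-m1 against 7.13, 5.84 and 5.66 in D2A1-m2.

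The remaining calls within the lists were scattered, and for Pfkm and Sesn1 the arrays of the sublines overlapped. Higher in D2A1-m1 were the water channel Aqp5, at 11.48 and 12.18 against 10.66, 11.07 and 11.17 (0.98, adjusted p = 0.00749), the kinase Dapk2 (1.02, adjusted p = 0.0405), the receptor Igf2r (0.90, adjusted p = 0.0262), the synaptic adhesion protein Nlgn2 (0.77, adjusted p = 0.0327), the tetraspanin Cd82 (0.72, adjusted p = 0.0158), the transporters Slc6a6 (0.93, adjusted p = 0.0292, other kept probe −0.21) and Slc7a2 (0.71, adjusted p = 0.0315), the lysosomal enzymes Ctsh (at least 1.07-fold, adjusted p = 0.0158) and Naglu (0.74, adjusted p = 0.0332), the glycolytic Pfkm (0.77, adjusted p = 0.0306, other kept probes 0.46 and 0.82) and the p53 target Sesn1 (0.64, adjusted p = 0.0296). Higher in D2A1-m2 were the melanosomal glycoprotein Gpnmb (−1.08, adjusted p = 0.0408), the actin-binding Marcks (−0.81, adjusted p = 0.0118), the enolase Eno3 (−0.75, adjusted p = 0.0195), the desmosomal Pkp2 (−0.72, adjusted p = 0.0168), the death receptor Tnfrsf21 (−0.70, adjusted p = 0.0252, other kept probe −0.43), the laminin chain Lamc1 (−0.67, adjusted p = 0.036, other kept probe −0.43), the perlecan gene Hspg2 (−0.61, adjusted p = 0.037), the proton pump subunit Atp6v1h (−0.65, adjusted p = 0.0331, other kept probe 0.15), the repair nuclease Ercc5 (−0.60, adjusted p = 0.0321) and the microtubule protein Map1b (at least 1.53-fold, adjusted p = 0.0349).

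The parental line showed on which side a difference lay. Batch-adjusted means were used, and the D2A1 arrays also helped to set the batch term, so these placements are descriptions with no test. In 37 of the 385 genes neither D2A1 nor the dimmer subline was above background, and their order there has no meaning. Of the 180 genes higher in D2A1-m1, D2A1 lay below both sublines in 67, as for Mgp, Chst1 and Notum, between them in 82 and above both in 31. It was nearer to D2A1-m2 in 62.8% of the 180, against 49.4% of all genes tested. Of the 205 genes higher in D2A1-m2, D2A1 lay above both in 48, as for Ptx3, Shroom2 and Cyp2c55, between them in 90, and below both in 67, as for Casp1 and Rab32. It was nearer to D2A1-m1 in 59.0% of the 205, against 50.6% of all genes tested. The places above, between and below were not counted over all genes, so these counts have no share to be set against. In Mgp and Casp1 both sublines lay on one side of D2A1 at unequal distance. In Crip2 the D2A1 arrays, at 6.13 to 6.72, spanned the D2A1-m1 values of 6.45 and 6.20, and D2A1-m2 stood apart.

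**Figure D5:**
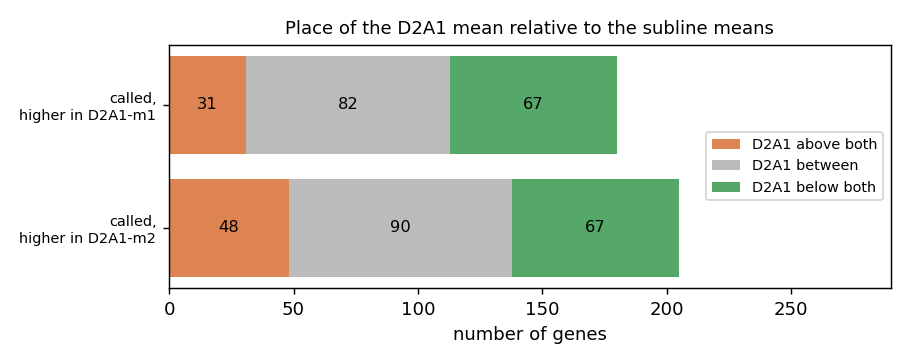
Number of called genes (x axis) for which the batch-adjusted D2A1 mean lay above, between or below the subline means, in separate bars for genes higher in D2A1-m1 and genes higher in D2A1-m2. In both bars the middle part, 82 and 90 genes, is the widest, but the same places were not counted over all genes tested.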

How the data were processed

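The authors deposited an unnormalized intensity for every probe on each array, together with a detection p-value per probe against the negative control beads. The authors also deposited processed values, which lie near a log2 scale (column medians 7.83 to 7.84). Per the study's methods, these were made in lumi by a variance-stabilising transformation and robust splines, followed by ComBat for the batch, and each column matched its own array best (Spearman 0.996 to 0.997). They were used only as an alternative, since their centring is unstated. No version of lumi was found.

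Here neqc of limma 3.58.1 (R 4.3.3) estimated the background from the detection p-values and turned the intensities into quantile-normalized log2 values, with an offset of 16. Probes detected (p at most 0.01) on at least 1 of 8 arrays were kept (16462), of which 14107 name 1 gene in the platform annotation. The RefSeq gene table changed 0 symbols. The probe of largest interquartile range stood for each gene, as in the study's methods. Among 168 called genes with more than 1 kept probe, another probe was under 1.5-fold or opposite in 105. In 59 called genes the dimmer subline was not detected on any array. In these the fold is a bound, from means of normalized log2 values: the brighter subline against, per array of the dimmer, the higher of the lowest detected signal and the probe's own. In 1 further gene neither subline was detected.

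All 8 arrays entered 1 linear model (lmFit, eBayes) with terms for line and batch, which left 4 residual degrees of freedom and 5.23 from the prior. The median residual SD was 0.162. The number of arrays limits the precision. The fit was tested on simulated data. Alternatives changed background, scaling, filter, probe, batch, replicate numbers, arrays and test. The members, the 34 gene lists, the 8 marker lists and the rules were chosen with earlier results of these data known, so they are no independent support. Named were the 15 largest called differences each way with one sign in every same-batch pair, the 6 smallest adjusted p each way, up to 4 called genes per list, and markers detected in a subline. Other genes named were chosen after their values were seen. Promoter sequences are RefSeq's (GRCm38.p6). Figures used matplotlib 3.10.9.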

Additional observations from a re-analysis of the deposited data

How the results depend on the processing

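The counts of called genes moved with several choices, and the cause was not tested beyond the fewer genes or arrays that some of them use. Given as all, higher in D2A1-m1 and higher in D2A1-m2, they were 385, 180 and 205. With no background correction 248 were called (123 higher in D2A1-m2), with an offset of 50, 246 (122), with no detection filter 214 (97 and 117), with no batch term 70 (30 and 40) and on the authors' processed values 89 (44 and 45). The replicate number as a block in place of the batch gave 97 (42 and 55). Same-numbered arrays of the sublines deviated together (r = 0.709 for number 1 and 0.332 for number 2), but the number coincides with the batch there and gives only 2 pairs, so it was not taken as pairing. With only the subline arrays 275 genes were higher in D2A1-m1. In batch 1 alone limma called 0 genes (0, 0), with 432 at an unadjusted p under 0.05, and in batch 2 alone 476. Each batch holds 1 D2A1-m1 array, and batch 1 also 1 D2A1-m2 array, so the spread came from the other arrays and the lone ones were assumed to vary alike. A t-test like that of the methods was run on the neqc values after a ComBat step written anew, not on the study's lumi values or with its software. At the methods' unadjusted threshold and 1.5-fold it called 43 (15 and 28), of which limma called 39. After Benjamini-Hochberg adjustment it called 0, with 365 at an unadjusted p under 0.05 and 1.5-fold. Leaving out 1 array gave 32 to 545 (9 to 265 and 23 to 280), and D2A1 then lay between the sublines in 38.0% to 46.9% of called genes, against 44.7%. Genes of the same sign in both batches fell to 59.9% with no detection filter. On the authors' processed values the list medians were 0.37 for interferon-stimulated genes, 0.13 for antigen presentation, 0.15 for milk genes, −0.073 for matricellular genes, 0.057 for fibroblast markers and −0.072 for pericyte markers. Leaving out 1 array, an alternative added after the data were seen, gave medians of 0.48 to 0.91 for interferon-stimulated genes and −0.24 to −0.10 for actin genes. Among the 101 named genes the direction turned once, for Slc6a6 with the probe of highest mean (−0.21). The other settings kept the counts within 1.5 times.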

Other observations

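Kept probes that carry no single gene name in the annotation were left out of the gene tests. There were 2355 of them, and over all kept probes 57 passed the same threshold, 18 higher in D2A1-m1 and 39 higher in D2A1-m2. Their transcripts are not named here. No marker of adipocytes was detected on any of the 8 arrays, and of 14 measured markers of lung epithelium Hopx and Abca3 were detected in the sublines, with a summed linear level of 690 to 788 in D2A1-m1 and 487 to 644 in D2A1-m2.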
